A study of Homo sapiens with 6 samples.

Results

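The alpha and beta tubulin isotypes were followed in MDA-MB-231 (an established human line of triple-negative breast cancer) by RNA sequencing after treatment with nitidine chloride (NCD), a plant benzophenanthridine alkaloid. The members were 10 genes given by name, 4 for alpha tubulin (TUBA1A, TUBA1B, TUBA1C and TUBA4A) and 6 for beta tubulin (TUBB, TUBB2A, TUBB2B, TUBB3, TUBB4B and TUBB6), out of 63241 gene identifiers in the files. All 10 passed the filter on low counts. Wild-type cells of this 1 line were exposed for 24 h to 5 μM NCD (3 libraries) or to 0.1% DMSO, the solvent (3 libraries). No label says that the libraries came from separate cultures, so the p-values measure the spread between these libraries, which may be technical.

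Tubulin is a dimer of an alpha and a beta chain, and the dimers assemble into microtubules, the hollow filaments of the cytoskeleton and of the mitotic spindle. Human cells hold several genes for each chain, called isotypes, whose products are nearly alike over most of their length and differ mainly in a short acidic tail at the carboxyl end. Tubulin mRNA is autoregulated: when free dimers are in excess, TTC5 binds the first amino acids of nascent tubulin on the ribosome and, with SCAPER, brings the CCR4-NOT deadenylase to the mRNA, which is then degraded. TUBB3 is best known as the neuronal beta isotype and is widely studied in epithelial cancers treated with drugs that bind microtubules.

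The start of the coding sequence is shown because the autoregulation reads the peptide that it encodes, while this peptide is being made. The first 30 coding bases are given 5′ to 3′ from GENCODE release 29 transcripts on GRCh38, with the first 4 codons in capitals. The 10 isotypes had 6 different versions of these 4 codons, and TUBA1A, TUBA1B and TUBA1C shared the same version. Among the alpha genes, and among the beta genes, the versions differ only by synonymous codons and encode the same 4 amino acids.
TUBA1B: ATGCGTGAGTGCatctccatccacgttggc
TUBA4A: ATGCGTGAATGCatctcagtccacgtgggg
TUBB: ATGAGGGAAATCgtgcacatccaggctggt
TUBB2A: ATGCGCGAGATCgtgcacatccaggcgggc
TUBB2B: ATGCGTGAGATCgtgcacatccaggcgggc
TUBB3: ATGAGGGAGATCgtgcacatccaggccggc
TUBB4B: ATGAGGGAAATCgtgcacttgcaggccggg
TUBB6: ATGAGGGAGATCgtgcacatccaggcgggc
The 4 capital codons were the same in TUBB3 and TUBB6, and the same in TUBB and TUBB4B. In the 4 alpha genes the start codon lay in exon 1 and the second codon in exon 2, so that an intron splits these bases in the genome, whereas in the 6 beta genes all 10 codons lay in exon 1.

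The other end is shown because it encodes the tail, and because reads from stretches that are alike are hard to assign, there as elsewhere in the transcript. These are the last 60 coding bases of 5 beta isotypes, followed by the stop codon in capitals, all from exon 4 of the same transcripts.
TUBB, plus strand, chr6:30724335-30724397: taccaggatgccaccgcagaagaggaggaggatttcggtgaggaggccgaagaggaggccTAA
TUBB2A, minus strand, chr6:3153863-3153925: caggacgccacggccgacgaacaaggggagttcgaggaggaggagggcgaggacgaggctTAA
TUBB2B, minus strand, chr6:3224751-3224813: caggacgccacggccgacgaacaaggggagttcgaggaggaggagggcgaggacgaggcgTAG
TUBB3, plus strand, chr16:89935742-89935804: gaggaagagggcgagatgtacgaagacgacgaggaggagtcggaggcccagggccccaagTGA
TUBB6, plus strand, chr18:12326068-12326130: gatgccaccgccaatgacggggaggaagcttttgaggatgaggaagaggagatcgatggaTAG
Not all isotypes differ there: TUBA1A and TUBA1B, not shown, had the same last 60 coding bases and stop codon. Over the whole coding sequence TUBB2A and TUBB2B were 98.2% identical, the 6 pairs of alpha genes were 84.4% to 97.2% identical, the 15 pairs of beta genes 80.9% to 98.2%, and alpha against beta 53.3% to 55.8%.

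The libraries held 18223594 to 19410833 counts with DMSO and 18232169 to 21629653 with NCD, where a count is an expected count estimated by the authors and rounded here. In their descriptions NCD replicates 2 and 3 carry other cell line numbers, while their cell line field names MDA-MB-231. NCD replicate 1, which has no such conflict, lay on the same side of the DMSO range as both of them for 9 isotypes. Over all genes tested the groups did not overlap for 72.6%. A shared direction does not tell which cell line a library came from. In CPM, which are counts scaled to the TMM-adjusted library size, 6 markers of MDA-MB-231 (VIM, CD44, AXL, EGFR, CAV1 and ZEB1) summed to 5717 to 5954 with DMSO and to 3609 to 3888 with NCD, and none was below 1 CPM. All 6 were lower with NCD at an adjusted p below 0.05, by log2 fold changes from -0.21 for VIM to -3.10 for ZEB1. VIM and CAV1 (-0.83) changed by less than 1 on this scale. Of all genes tested 34.1% passed as lower at an adjusted p below 0.05. Markers of other cells were low or mixed. The luminal markers ESR1, PGR and CDH1 stayed below 1 CPM while the sum of all 8 luminal markers went from 805 to 926 with DMSO to 1033 to 1223 with NCD. Most of this sum was KRT8, with means of 412 CPM with DMSO and 596 CPM with NCD, and KRT18, with 399.6 and 483 CPM. Log2 fold changes were 0.53 for KRT8, 0.27 for KRT18, 0.71 for ERBB2, 0.57 for EPCAM and 0.25 for GATA3. The 6 leukocyte markers summed to 81.5 to 90.9 and 86.6 to 95.9 CPM, with MS4A1 at 0. Nearly all of this was CD68, with means of 84.6 CPM with DMSO and 91.0 CPM with NCD. The 5 fibroblast markers summed to 4.13 to 5.32 and 18.6 to 19.9 CPM, with COL1A2 at 0 in all libraries. COL1A1 and PDGFRB rose, by log2 fold changes of 2.24 and 1.68. The part of these markers in the tubulin results was not tested. Values are shares of each library, so that a change in the mRNA of a gene and a change in total mRNA cannot be told apart.

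Under NCD the minor beta isotypes TUBB2B, TUBB2A and TUBB3 rose 3.94-fold, 2.53-fold and 2.40-fold, while TUBB6 fell to 0.444 of its DMSO level. The most abundant isotypes of each chain, TUBA1B and TUBB, fell to 0.727 and 0.750, and the minor alpha isotypes TUBA1A and TUBA4A rose 1.49-fold and 1.46-fold. TUBA1C and TUBB4B did not pass the test. Genes were called at an adjusted p below 0.05 with an absolute log2 fold change above 1 by the quasi-likelihood test of edgeR, with p-values adjusted over 15295 genes by the Benjamini-Hochberg method. By this rule 3 isotypes were called higher and 1 lower, 40% of the 10, where 31.0% of all genes tested were called (13.5% higher and 17.5% lower). Without the fold threshold 5 isotypes passed as higher and 3 as lower, 80% of the 10, against 69.3% of all genes tested (35.3% higher and 34.1% lower). The median log2 fold change was 0.33 over the isotypes and 0.04 over all genes tested. The CPM of the groups did not overlap for 9 isotypes, 5 with NCD above DMSO and 4 with NCD below, and did not overlap for 72.6% of all genes tested (NCD above for 37.2%, below for 35.3%).

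**Figure D1:**
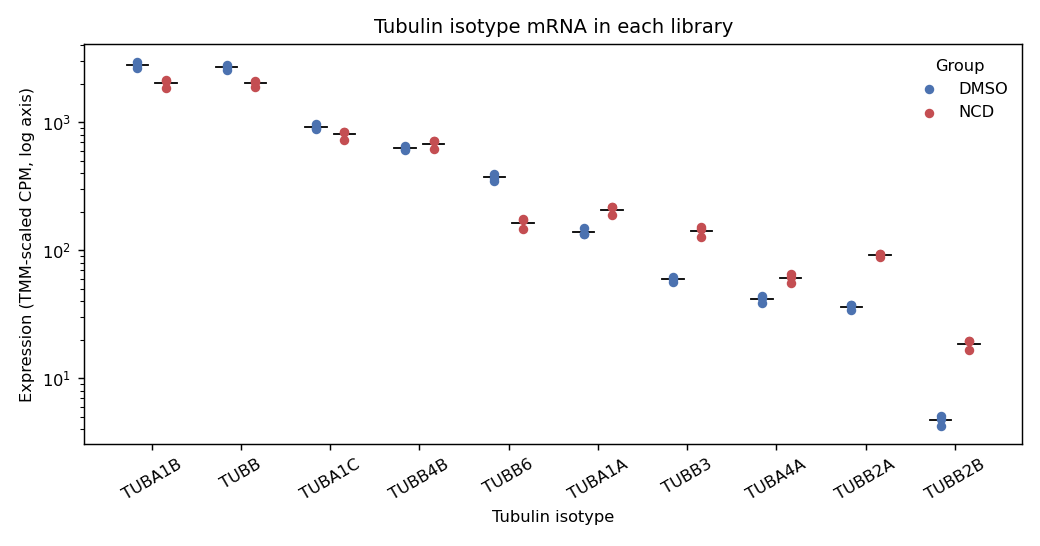
Expression of the 10 isotypes in each of the 6 libraries, in TMM-scaled CPM on a log axis (points: libraries, black bars: group means, blue: DMSO, red: NCD). CPM are not divided by transcript length, so heights are to be compared within an isotype: the groups separate for 9 isotypes and overlap for TUBB4B.

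Among the beta isotypes, TUBB2A (ENSG00000137267, chr6:3153669-3157526, minus strand) and TUBB2B (ENSG00000137285, chr6:3224261-3231730, minus strand) are neighbouring class II genes, prominent in brain. TUBB2A measured 37.5, 34.0 and 37.3 CPM in the DMSO libraries and 93.4, 93.5 and 88.5 CPM in the NCD libraries. All NCD libraries lay far above all DMSO libraries and close to each other. The log2 fold change of TUBB2A was 1.34 (SE 0.07, 95% confidence interval 1.18 to 1.5, edgeR adjusted p = 3.09e-07). TUBB2B, the least expressed isotype, measured 5.06, 4.24 and 4.82 CPM with DMSO and 19.6, 19.5 and 16.7 CPM with NCD. It rested on 75 to 88 counts in each DMSO library and 358 to 448 in each NCD library, again with no overlap. Its log2 fold change was 1.98 (SE 0.12, 95% confidence interval 1.71 to 2.25, edgeR adjusted p = 8.84e-07). In the transcript of TUBB2A 56.8% of the stretches of 75 bases occur also in TUBB2B, and 44.4% of those of TUBB2B occur in TUBB2A, so the split of reads between these genes is uncertain. TUBB2B also shares 174 exon bases with PSMG4 on the opposite strand, a gene at 191 to 316 counts whose log2 fold change was 0.09 (edgeR adjusted p = 0.421). The strand of the libraries is not given in the sources used here, so reads from such bases cannot be told apart.

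TUBB3 (ENSG00000258947, chr16:89921392-89938761, plus strand), the class III isotype of neurons, measured 61.8, 59.7 and 56.5 CPM with DMSO. With NCD it measured 147, 152 and 128 CPM. The lowest NCD library was above the highest DMSO library by more than the whole range of either group. TUBB3 had a log2 fold change of 1.26 (SE 0.08, 95% confidence interval 1.08 to 1.44, edgeR adjusted p = 9.85e-07). Of its transcript 89.2% of the stretches of 75 bases also belong to a readthrough gene on the same strand (ENSG00000198211), which held at most 6.98 counts in any library.

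TUBB6 (ENSG00000176014, chr18:12307669-12344320, plus strand), the class V isotype, was the isotype that moved furthest down. It measured 397, 349 and 367 CPM with DMSO and 176, 171 and 146 CPM with NCD. Every NCD library was at about the same low level and none came near the DMSO range. The log2 fold change of TUBB6 was -1.17 (SE 0.08, 95% confidence interval -1.36 to -0.98, edgeR adjusted p = 2.42e-06). With scaling by library totals, where the median of all genes moved up by 0.20, it was -0.975 and no longer past the fold threshold. No stretch of 75 bases in the transcript used here occurs in another gene on either strand. Over all its annotated exons the gene shares 837 bases with AFG3L2 on the opposite strand, which held 1504 to 1959 counts and had a log2 fold change of -0.14 (edgeR adjusted p = 0.0432).

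TUBB (ENSG00000196230, chr6:30720201-30725426, plus strand), the class I isotype of most tissues, supplied most of the beta tubulin mRNA. It measured 2796, 2570.2 and 2707 CPM with DMSO and 2097, 2069 and 1888 CPM with NCD. The groups did not overlap. Its log2 fold change was -0.42 (SE 0.07, 95% confidence interval -0.58 to -0.25, edgeR adjusted p = 0.000839), below the fold threshold. TUBB4B (ENSG00000188229, chr9:137241213-137243707, plus strand), the class IVb isotype, measured 659, 606 and 617 CPM with DMSO and 713, 716 and 616 CPM with NCD. NCD replicate 3 fell within the DMSO range while the other NCD libraries lay above it. TUBB4B did not pass the test (log2 fold change 0.12, SE 0.08, 95% confidence interval -0.05 to 0.29, edgeR adjusted p = 0.186). It passed without NCD replicate 3 (0.171, edgeR adjusted p = 0.0413) and with scaling by library totals (0.317, edgeR adjusted p = 0.00165).

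**Figure D2:**
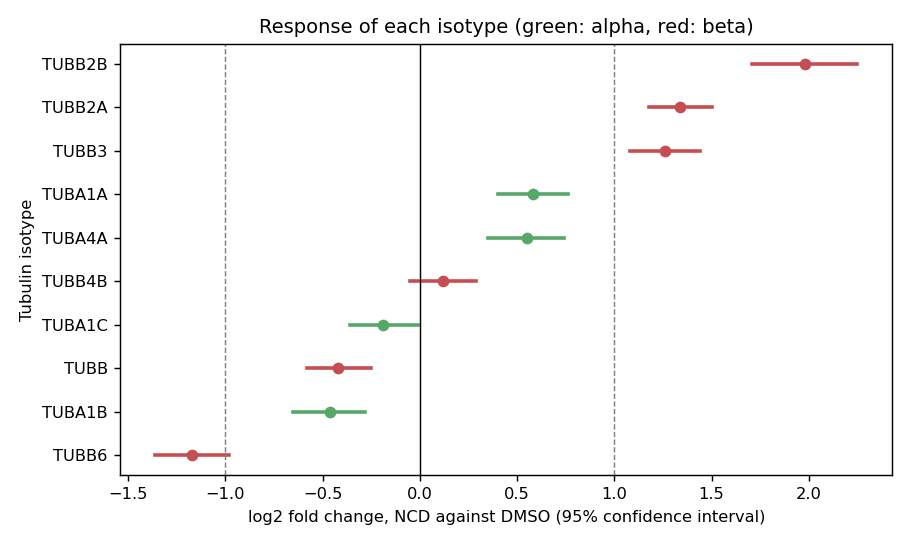
Log2 fold change of each isotype, NCD against DMSO, with its 95% confidence interval from edgeR (points: estimates, lines: intervals, green: alpha, red: beta, dashed lines: the fold threshold of 1 in each direction). TUBB2B, TUBB2A and TUBB3 lie wholly right of the threshold, the interval of TUBB6 reaches from -1.36 to -0.98, and the interval of TUBB4B crosses 0.

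Of the alpha isotypes, TUBA1B (ENSG00000123416, chr12:49127782-49131397, minus strand), the ubiquitous form, was by far the most abundant. It measured 2953, 2657 and 2803 CPM with DMSO and 2121, 2134 and 1858 CPM with NCD. All NCD libraries were below all DMSO libraries. The log2 fold change of TUBA1B was -0.46 (SE 0.08, 95% confidence interval -0.65 to -0.28, edgeR adjusted p = 0.000833). Of its transcript 66.6% of the stretches of 75 bases lie on either strand of TUBA1B-AS1, an antisense gene that held 889.7 to 2372 counts. TUBA1B-AS1 had a log2 fold change of -0.18 (edgeR adjusted p = 0.665), and adding its counts to TUBA1B gave -0.450 (edgeR adjusted p = 0.00153).

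TUBA1C (ENSG00000167553, chr12:49188736-49274603, plus strand), the second alpha isotype by level, measured 964, 879 and 909 CPM with DMSO. With NCD it measured 846, 842 and 731 CPM. The NCD libraries were lower without overlap, yet by a small step. TUBA1C did not pass (log2 fold change -0.19, SE 0.08, 95% confidence interval -0.36 to -0.01, edgeR adjusted p = 0.0543). DESeq2 called it past an adjusted p of 0.05 (-0.207, adjusted p = 0.0274), and with library totals its value was 0.011 (edgeR adjusted p = 0.886), so the direction for TUBA1C depends on the scaling. TUBA1C shares 666 exon bases with ENSG00000258232 on the opposite strand, and 19.3% of its stretches of 75 bases occur there. That gene held 2406 to 3158 counts and had a log2 fold change of -0.20 (edgeR adjusted p = 0.0646).

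TUBA1A (ENSG00000167552, chr12:49184796-49189324, minus strand), abundant in developing neurons, measured 150.0, 133 and 134 CPM with DMSO and 218, 217 and 188 CPM with NCD. The NCD libraries were all higher. Its log2 fold change was 0.58 (SE 0.08, 95% confidence interval 0.40 to 0.76, edgeR adjusted p = 0.000158). TUBA1A and TUBA1C overlap on opposite strands over 490 exon bases, and 36.6% of the stretches of 75 bases in TUBA1A occur in other alpha isotypes, so the values of TUBA1A, TUBA1B and TUBA1C are uncertain to the extent that reads were shared.

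TUBA4A (ENSG00000127824, chr2:219249711-219278170, minus strand), an isotype prominent in platelets, muscle and neurons, measured 44.3, 38.9 and 42.3 CPM with DMSO. With NCD it measured 65.1, 62.3 and 55.6 CPM. The groups were apart, with a log2 fold change of 0.55 (SE 0.08, 95% confidence interval 0.35 to 0.74, edgeR adjusted p = 0.000369). It shares 627 exon bases with STK16, a kinase gene on the opposite strand, which rose by a log2 fold change of 0.51 (350 to 469 counts with DMSO and 663 to 756 with NCD, edgeR adjusted p = 0.00183).

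NCD replicate 3 had the lowest CPM of the NCD libraries for every isotype. The 10 isotypes together took 0.695% to 0.734% of the counts of a DMSO library and 0.623% to 0.687% of an NCD library. The 4 alpha isotypes summed to 3903 ± 201 CPM with DMSO and 3112 ± 243 CPM with NCD (SD, n = 3 libraries each), a ratio of 0.797. The 6 beta isotypes summed to 3789.7 ± 166 and 3117 ± 202 CPM, a ratio of 0.823. Both sums were lower with NCD without overlap in CPM. As a share of all counts, without TMM scaling, the beta isotypes took 0.344% to 0.360% with DMSO and 0.314% to 0.344% with NCD, so the groups met. The alpha isotypes took 0.352% to 0.374% and 0.309% to 0.345%. Per transcript length, in TPM, which scale each library's counts per length to a fixed sum, the alpha pool was 3979.9 ± 32.9 with DMSO and 3448 ± 109.8 with NCD, and the beta pool 3058 ± 44.8 and 2912 ± 63.2.

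Levels were compared between isotypes per length. With DMSO the order by TPM was TUBA1B (3234 ± 20.3), TUBB (1891 ± 28.7), TUBB4B (719.6 ± 17.5), TUBA1C (574 ± 9.55), TUBB6 (337 ± 4.96), TUBA1A (136 ± 4.80), TUBB3 (63.1 ± 3.94), TUBB2A (42.7 ± 0.959), TUBA4A (36.3 ± 0.377) and TUBB2B (4.39 ± 0.154, SD over 3 libraries for each). No neighbours in this order overlapped. With NCD the first 4 and the last 3 kept their places, while TUBB6 (166 ± 8.88 TPM) dropped behind TUBA1A (225 ± 8.43 TPM) and TUBB3 (167 ± 7.05 TPM). TUBB3 and TUBB6 then overlapped, and no other neighbours did. The order depends on the length used: with the union of all exons as length TUBB stood above TUBA1B in both groups, and with coding length TUBA1C stood above TUBB4B in both and TUBB above TUBA1B with NCD. With either of these lengths TUBB6 stayed above TUBB3 with NCD.

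The makeup of each pool was expressed as the share of an isotype in the summed counts per length of its family. In the beta pool TUBB made up 61.5%, 61.7% and 62.3% with DMSO and 53.9%, 53.5% and 54.8% with NCD. TUBB6 went from 11.0% ± 0.23 to 5.69% ± 0.18 (SD, n = 3). Higher shares were taken by TUBB4B, from 23.5% ± 0.30 to 29.7% ± 0.52, by TUBB3, from 2.06% ± 0.10 to 5.74% ± 0.15, by TUBB2A, from 1.40% ± 0.039 to 4.12% ± 0.16, and by TUBB2B, from 0.144% ± 0.0071 to 0.656% ± 0.014. By transcript length there were 18.7 ± 1.09 TUBB3 transcripts for each 100 of TUBB6 with DMSO and 101 ± 3.16 with NCD. In the alpha pool TUBA1B went from 81.3% ± 0.18 to 75.6% ± 0.16, TUBA1C from 14.4% ± 0.12 to 16.2% ± 0.086, TUBA1A from 3.42% ± 0.10 to 6.54% ± 0.043 and TUBA4A from 0.912% ± 0.017 to 1.70% ± 0.040. The groups did not overlap for any of the 10 shares, and the differences ranged from -7.81 percentage points for TUBB to 6.22 for TUBB4B. Each had a two-sided exact permutation p of 0.1 (0.1 after Benjamini-Hochberg adjustment over the 10), which is the smallest that 3 against 3 libraries can give. With the union of all exons as length the difference for TUBB3 was 1.94 percentage points instead of 3.68. Shares within a pool sum to a fixed total, so they do not move independently.

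**Figure D3:**
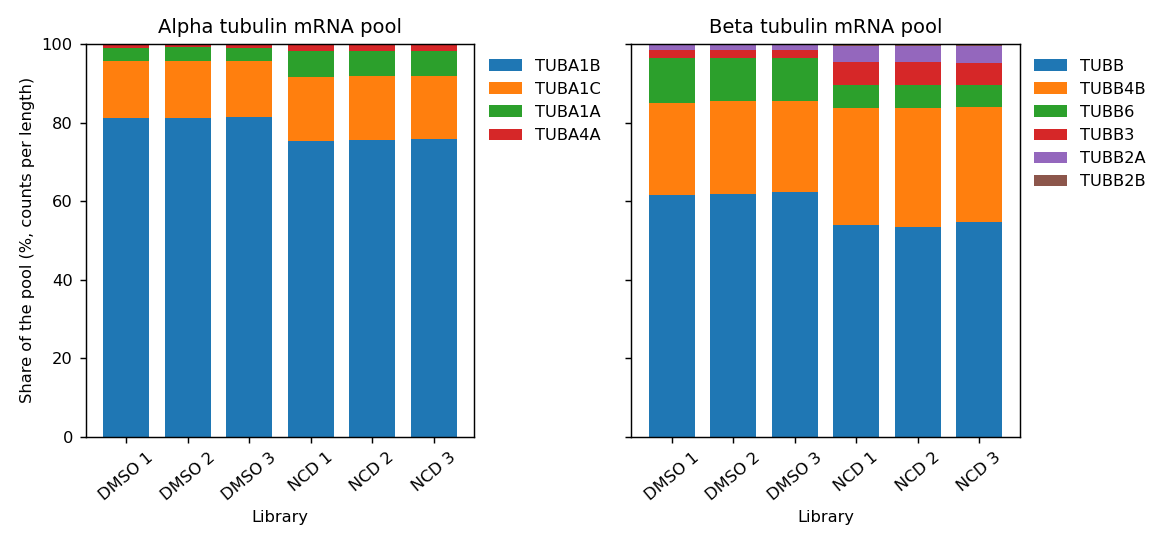
Share of each isotype in the alpha (left) and beta (right) tubulin mRNA pool of each library, in percent of the summed counts per transcript length. TUBA1B and TUBB take smaller shares in the NCD libraries, TUBB6 goes from 11.0% to 5.69% of the beta pool, and TUBB3 from 2.06% to 5.74%.

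The other tubulin genes were read beside them. Of 12, the 4 that passed the low-count filter all rose, and 3 of them were called. Of all genes tested 35.3% passed as higher at any fold and 13.5% were called higher. TUBG1, the main gamma tubulin of the centrosome, measured 124, 112 and 119.9 CPM with DMSO and 206, 211 and 190 CPM with NCD, with no overlap (log2 fold change 0.77, edgeR adjusted p = 7.13e-06). The rarer TUBG2 had 8.46 ± 0.642 CPM with DMSO and 17.3 ± 1.01 with NCD (SD over 3 libraries, as for the genes that follow, log2 fold change 1.03, edgeR adjusted p = 2.08e-05). The centriolar delta tubulin TUBD1 had 9.02 ± 0.979 and 19.4 ± 1.81 CPM (1.10, edgeR adjusted p = 3.33e-05), and epsilon tubulin TUBE1 19.7 ± 2.66 and 39.7 ± 1.63 CPM (1.01, edgeR adjusted p = 2.46e-05). The remaining 8 genes (TUBA3C, TUBA3D, TUBA3E, TUBA8, TUBAL3, TUBB1, TUBB4A and TUBB8) held 0 to 10 counts in every library.

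In the autoregulation list (12 genes), 4 were called lower and none higher, and the median log2 fold change was -0.48. Without the fold threshold 6 passed as lower and 4 as higher. Of all genes tested 17.5% were called lower and 13.5% higher, and at any fold 34.1% passed as lower and 35.3% as higher. SCAPER, which links TTC5 to the deadenylase, measured 9.94, 15.8 and 12.1 CPM with DMSO and 0.306, 0.414 and 0.420 CPM with NCD. This was 165 to 280 counts against 7 to 9 counts, with no overlap, and a log2 fold change of -5.04 (SE 0.26, edgeR adjusted p = 3.46e-07). TTC5, the reader of the nascent peptide, measured 21.3, 21.6 and 19.7 CPM with DMSO and 23.2, 19.7 and 21.4 CPM with NCD. The groups overlapped and TTC5 did not pass (log2 fold change 0.04, 95% confidence interval -0.17 to 0.25, edgeR adjusted p = 0.714). Of the CCR4-NOT complex, CNOT2, a subunit without deadenylase activity, fell from 83.4 ± 3.56 to 32.2 ± 1.68 CPM (-1.37, edgeR adjusted p = 3.36e-07). The 4 catalytic subunits differed among themselves: CNOT6 (-1.01, edgeR adjusted p = 4.41e-06) and CNOT6L (-1.05, edgeR adjusted p = 0.000182) fell, CNOT8 rose (0.66, edgeR adjusted p = 1.8e-05) and CNOT7 did not pass (-0.05, edgeR adjusted p = 0.433).

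No gene that folds tubulin was called higher, where 13.5% of all genes tested were. Of the 7 folding cofactors and their regulators, which assemble the dimer after release from the chaperonin, 3 were called lower (median -0.14), where 17.5% of all genes tested were. The beta tubulin cofactors TBCD and TBCA fell by 1.75 and 1.37 on the log2 scale (edgeR adjusted p = 1.40e-07 and 2.61e-06), and the alpha tubulin cofactor TBCE fell by 1.04 (edgeR adjusted p = 2.14e-06). In the cofactor list TBCC (0.60, edgeR adjusted p = 0.000148) and ARL2 (0.38, edgeR adjusted p = 0.00927) rose below the fold threshold. Of the 14 prefoldin and CCT chaperonin genes, which fold new tubulin chains, 10 did not pass the test at any fold. Of all genes tested 69.3% passed it. Of the 14 genes 1 was called, where 31.0% of all genes tested were. This was PFDN1, a prefoldin subunit, which fell from 162 ± 16.2 to 68.7 ± 5.94 CPM (-1.23, edgeR adjusted p = 3.15e-06). Of the 11 genes of the gamma-tubulin ring complex, which nucleates microtubules, 1 was called lower and 1 higher (median 0.09). Of all genes tested 17.5% were called lower and 13.5% higher. TUBGCP5 fell (-1.88, edgeR adjusted p = 9.48e-07) and TUBG2 rose.

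Of 20 tested genes for tubulin modifying enzymes 5 were called higher and 4 lower (median 0.29), where 13.5% and 17.5% of all genes tested were. Without the fold threshold 11 passed as higher and 5 as lower, where 35.3% and 34.1% of all genes tested did. The polyglutamylases TTLL5 and TTLL11, which add glutamate chains to tubulin tails, went from 75.7 ± 6.93 to 5.43 ± 0.301 CPM (-3.80, edgeR adjusted p = 1.58e-08) and from 21.8 ± 0.870 to 3.05 ± 0.199 CPM (-2.83, edgeR adjusted p = 5.88e-08). AGTPBP1, a carboxypeptidase that trims such chains, fell by 2.92 on the log2 scale (edgeR adjusted p = 8.58e-07), whereas AGBL3, of the same enzyme family, rose from 1.49 ± 0.349 to 4.59 ± 0.165 CPM (1.62, edgeR adjusted p = 9.55e-05). Also called higher were TTLL6, AGBL2, VASH2 and VASH1 (log2 fold changes 1.03 to 2.97), with means of 0.115 to 3.53 CPM with DMSO. TTLL7 was also called lower (-1.46).

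The genes of proteins that stabilise microtubules or bind their ends had the lowest median of these lists, -0.72. Of 22, 10 were called lower and 4 higher, where 17.5% and 13.5% of all genes tested were. The 4 called higher were MAP1A, MAP9, CAMSAP3 and TPPP (log2 fold changes 1.23 to 2.60), with means of 0.321 to 12.7 CPM with DMSO. MAP4, the main microtubule-associated protein outside neurons, measured 269, 291 and 271 CPM with DMSO and 40.1, 33.8 and 37.5 CPM with NCD, far apart (-2.90, edgeR adjusted p = 1.58e-08). CLASP1 and CLASP2, which hold growing plus ends, fell by 3.03 and 2.37 on the log2 scale (edgeR adjusted p = 2.93e-07 and 3.73e-07), and the minus-end protein CAMSAP1 fell by 1.31 (edgeR adjusted p = 1.94e-06). Of 11 genes of destabilising and severing proteins 3 were called lower and none higher (median -0.58), where 17.5% and 13.5% of all genes tested were. These were the stathmin STMN3 (-1.29, edgeR adjusted p = 6.36e-06), the katanin-like KATNAL1 (-1.02, edgeR adjusted p = 2.16e-05) and the fidgetin gene FIGN (-1.48, edgeR adjusted p = 7.58e-05).

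Over the 8 lists, in which 99 genes were tested, 12 were called higher and 26 lower, where 13.5% and 17.5% of all genes tested were. With scaling by library totals 14 were called higher and 19 lower. The 26 called lower had a median gene span of 138.4 kb (18 to 557.5 kb, SCAPER being the longest), the 12 called higher 33.5 kb, the 61 not called 25.3 kb and all genes tested 29 kb. The 10 isotypes themselves had a median span of 6.3 kb (2.5 to 85.9 kb). The part of gene span in these results was not tested.

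**Figure D4:**
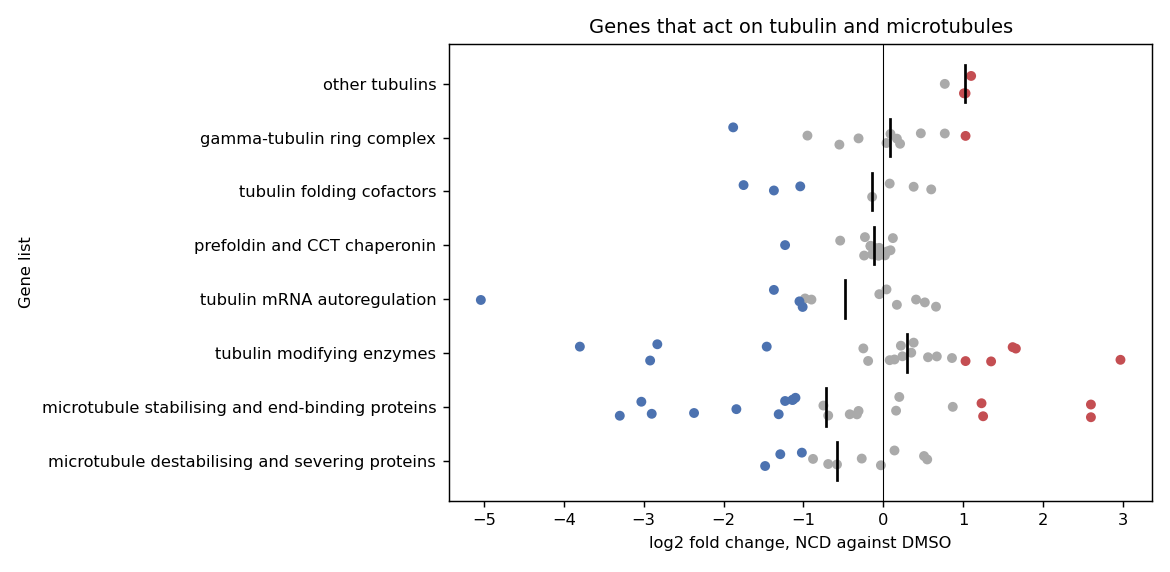
Log2 fold change, NCD against DMSO, of every tested gene in 8 lists of genes of the tubulin and microtubule system (red: called higher, blue: called lower, grey: not called, black bars: list medians, heights within a list are arbitrary). The medians run from -0.72 for stabilising and end-binding proteins to 1.02 for the other tubulins, and SCAPER lies farthest left at -5.04.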

How the data were processed

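Per the labels, total RNA of MDA-MB-231 cells was sequenced, and per the submitters' processing notes HISAT2 and RSEM were used with GRCh38. The deposited values are expected counts per Ensembl gene, which the authors did not normalize, with 1 table per library. They were rounded to whole numbers (11.57% were not whole). Stray text lines without a count, 25 per library, were skipped. Library totals are given above, and genes with a few counts cannot be measured at this depth.

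edgeR 4.0.16 in R 4.3.3 was used with filterByExpr, TMM scaling, glmQLFit and glmQLFTest, with Benjamini-Hochberg adjustment. The study used DESeq2 with the same fold threshold and no stated adjustment of P, taken here as an alternative. CPM use TMM-scaled totals. Lengths, coordinates and sequences came from GENCODE release 29, which holds 58228 of 63241 identifiers. Whether it matches the authors' annotation is not known. Alternatives were DESeq2 1.42.0, limma-voom (limma 3.58.1), other scalings and filters, a replicate block and leaving out each library. The scripts were tested on simulated data.

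The members and lists were chosen with earlier results of these data known. Named were all isotypes, every other tubulin gene past the filter, TTC5 and SCAPER, and per list up to 4 called genes with the smallest p (up to 2 where none was called). Overlapping genes and the marker genes given with a value of their own were added after their values were seen. So were CNOT7, CNOT8, TBCC, ARL2, TTLL6, TTLL7, AGBL2, VASH1, VASH2, MAP1A, MAP9, CAMSAP3 and TPPP. A marker gene and a sequence are not reported here.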

Additional observations from a re-analysis of the deposited data

How the results depend on the processing

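Across 18 settings TUBB2A (1.286 to 1.537), TUBB2B (1.900 to 2.175), TUBB3 (1.196 to 1.458), TUBA1A (0.518 to 0.775) and TUBA4A (0.472 to 0.743) rose, and TUBB6 (-1.247 to -0.975), TUBA1B (-0.514 to -0.264) and TUBB (-0.467 to -0.218) fell on the log2 scale, all past a p of 0.05, adjusted except where DESeq2 was run with unadjusted p. With library totals the count of isotypes called lower was 0, since TUBB6 was at -0.975, and TUBA1C turned to 0.011. TUBA1C passed as lower with DESeq2, RLE size factors, limma-voom, no filter, and without DMSO replicate 2 (-0.226, edgeR adjusted p = 0.0409) or NCD replicate 1 (-0.246, edgeR adjusted p = 0.0488). Over all genes 4736 were called, 2067 higher and 2669 lower, and with library totals 2793 higher and 2181 lower, which turns the balance. Requiring 10 or more counts in all libraries left 1376 higher, and without the fold threshold there were 10602, with 5393 higher and 5209 lower. Leaving out each library in turn gave 4653 to 5049 calls over all genes and 33 to 38 in the lists, and 4 isotypes past the fold threshold each time. All 10 shares kept their direction without length correction, with union or coding lengths (chosen after seeing the data) and without each library, with the TUBB3 difference between 1.94 and 3.75 percentage points.

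Deviations of same-numbered libraries correlated at 0.314, -0.27 and 0.025. With 3 libraries per group these values cannot decide whether the numbers pair the libraries. A replicate block in the fit gave 4723 called genes and 4 called isotypes, kept the side of the threshold of all 10 isotypes and gave 38 calls in the lists. Depth limits TUBB2B with DMSO, SCAPER with NCD and the 8 unexpressed tubulin genes, and shared sequence limits TUBB2A against TUBB2B and the TUBA1 genes among themselves.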
